A study of Mus musculus with 30 samples.

Results

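The outermost sequenced megabase at either end of each autosome was described in mouse sperm, as the CpGs (cytosines followed by guanine) that reduced representation bisulfite sequencing (RRBS) read there. RRBS reads fragments cut from CpG-rich DNA, and bisulfite treatment lets methylated and unmethylated cytosines be counted. For each of the 19 autosomes, CpGs within 1 Mb of the smallest position covered in any library were called the centromere-side end, and those within 1 Mb of the largest position the distal end. A CpG was kept with 10 or more reads, strands summed, in 20 or more of the 30 libraries. This gave 8438 CpGs in centromere-side ends and 10049 in distal ends, 18487 of the 1183283 kept on these chromosomes.

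Cauda epididymal sperm came from 30 male C57BL/6J mice, all fed the same diet with 10% of its energy from fat and housed singly. In the cadmium group, 15 mice drank reverse-osmosis (RO) water with 0.9 ppm cadmium, prepared from cadmium chloride, at an average dose of 0.68 mg per kg of body weight. The 15 vehicle mice drank RO water alone. The labels give an initial age of 7 weeks and sampling 9 weeks post treatment, which was read as 9 weeks of treatment.

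Mouse autosomes carry the centromere close to one tip, so the assembly of each begins with an unsequenced gap, and the first covered positions lay between 3000031 (chromosome 9) and 3100509 (chromosome 11). The centromere-side ends are therefore assembled, gene-bearing sequence next to that gap, and the distal ends are likewise assembled, gene-bearing sequence. Whether some of their CpGs lie in satellite or other repeats was not tested. In sperm, CpG-dense promoters (CpG islands) are mostly free of methylation, while CpGs standing alone in genes and between genes are mostly methylated. Maternal germline differentially methylated regions (DMRs), the imprint marks laid down in the egg, are unmethylated in sperm and methylated on 1 parental copy in body cells.

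The libraries held 53591172 to 94090975 covering reads summed over all cytosines. The spiked-in methylated control read 97.9% to 98.7% methylated and the unmethylated control 0.0740% to 0.666%. Maternal DMRs were used as the check on the sperm label, through 14 of 17 measured gene ends (windows around gene starts) of imprinted genes. These were read in all 30 mice and averaged under 20%. The cut took out Mest (26.5%) and Plagl1 (21.5%), which keeps the level low. Peg10 and Sgce gave the same values, as did Peg3 and Usp29, so these count double. Whether each window covers its DMR was not tested, and Inpp5f and Grb10 averaged 0.513% and 0.904%. The level of the 14 gene ends was 2.36% to 31.3% over the libraries, and 2 vehicle libraries stood above 25%. Cadmium mouse 9 and vehicle mouse 15 had the lowest levels summed over the centromere-side ends, the distal ends and the rest of the chromosomes, at maternal DMR levels of 17.4% and 5.04%. The location and group differences of the 3 locations are given below with and without these pairs of libraries.

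The 4 promoters printed here show the range of what the ends hold, from a dense, unmethylated island to a dense, methylated one. They are RefSeq sequences on GRCm38.p6, read 5′ to 3′ on the strand of the gene, from 250 bases before to 50 bases after the start site. Capitals mark the CGs that met the coverage rule. Dnmt3a, which encodes a de novo DNA methyltransferase, lies in the centromere-side end of chromosome 12 (chr12:3806730-3807029, plus strand). LOC115490388, an lncRNA gene, is the outermost measured gene of chromosome 6 on the centromere side (chr6:3182866-3183165, plus strand). Ccdc152, which encodes a coiled-coil protein, holds the same place on chromosome 15 (chr15:3303477-3303776, minus strand). Tmem267, which encodes a membrane protein, lies in the distal end of chromosome 13 (chr13:119488223-119488522, plus strand).
Dnmt3a: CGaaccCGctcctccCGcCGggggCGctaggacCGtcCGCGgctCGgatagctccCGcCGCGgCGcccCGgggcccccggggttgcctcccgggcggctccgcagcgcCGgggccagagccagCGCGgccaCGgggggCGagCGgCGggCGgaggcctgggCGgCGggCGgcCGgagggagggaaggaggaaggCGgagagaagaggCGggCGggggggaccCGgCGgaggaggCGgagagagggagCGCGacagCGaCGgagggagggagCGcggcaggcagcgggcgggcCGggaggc
LOC115490388: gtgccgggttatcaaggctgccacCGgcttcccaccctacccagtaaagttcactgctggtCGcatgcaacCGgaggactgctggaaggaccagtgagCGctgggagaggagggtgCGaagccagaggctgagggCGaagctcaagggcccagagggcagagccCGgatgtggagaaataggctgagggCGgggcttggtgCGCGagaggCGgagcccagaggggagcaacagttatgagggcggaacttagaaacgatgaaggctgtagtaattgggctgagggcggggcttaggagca
Ccdc152: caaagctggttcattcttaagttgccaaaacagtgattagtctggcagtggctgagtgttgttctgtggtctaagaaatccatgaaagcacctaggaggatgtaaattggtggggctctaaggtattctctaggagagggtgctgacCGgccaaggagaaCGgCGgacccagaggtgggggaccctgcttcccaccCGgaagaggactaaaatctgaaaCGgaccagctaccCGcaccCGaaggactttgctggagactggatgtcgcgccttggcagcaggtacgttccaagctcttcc
Tmem267: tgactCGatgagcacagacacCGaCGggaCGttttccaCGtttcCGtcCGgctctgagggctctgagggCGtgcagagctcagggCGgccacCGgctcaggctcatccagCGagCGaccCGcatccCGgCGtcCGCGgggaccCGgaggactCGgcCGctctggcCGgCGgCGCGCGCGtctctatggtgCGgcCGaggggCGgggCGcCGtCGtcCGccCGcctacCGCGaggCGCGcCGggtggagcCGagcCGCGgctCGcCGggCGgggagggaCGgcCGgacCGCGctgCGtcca
In Dnmt3a, 38 of 46 CGs were measured, and their mean level was 0.457% ± 0.452 (SD, n = 30), with single mice from 0% to 1.88%. In LOC115490388, 11 of 15 CGs gave 15.2% ± 8.39, with single mice from 2.65% to 37.3%. Ccdc152 stood at 20.6% ± 18.4 over 7 of 10 CGs, and its mice spread from 0% to 61.7%. The latter 2 promoters differed widely between mice, while Dnmt3a stayed under 2% in all 30. All 50 CGs of the Tmem267 promoter were measured, and they stood at 65.2% ± 6.50, no mouse below 54.2%. The gene end of LOC115490388 had a median of 3559 reads summed over 12 CpGs, against 466.5 over 10 CpGs at Ccdc152. Whether other copies add reads at LOC115490388 or Tmem267 was not tested, so these 2 levels may be means over several copies.

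Taken over CpGs, the ends were less methylated than the rest of the chromosomes, and the distal ends less than the centromere-side ends. The level was 32.37% ± 0.661 (SD, n = 30) in centromere-side ends, 27.70% ± 0.433 in distal ends and 36.59% ± 0.632 in the rest. Single mice ran from 30.5% through a median of 32.4% to 33.7% at centromere-side ends, from 26.4% through 27.7% to 28.6% at distal ends, and from 34.7% through 36.8% to 37.4% in the rest. The ranges of the 3 locations did not overlap. Within mice, the centromere-side level was 4.67 points above the distal level in 30 of 30 mice. Centromere-side minus rest was -4.22 points and distal minus rest -8.89 points, each below 0 in 30 of 30 mice. Each gave p = 1e-05 in a two-sided permutation test of the sign within mice, the smallest that 100000 resamples can give, and an adjusted p of 1e-05 over the 3 differences. Without cadmium mouse 9 and vehicle mouse 15 the 3 differences were 4.70, -4.24 and -8.94 points, and without the 2 vehicle libraries above 25% at maternal DMRs 4.64, -4.34 and -8.98. The mice are an inbred strain read at the same positions, so the test speaks of mice and not of chromosomes.

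**Figure D1:**
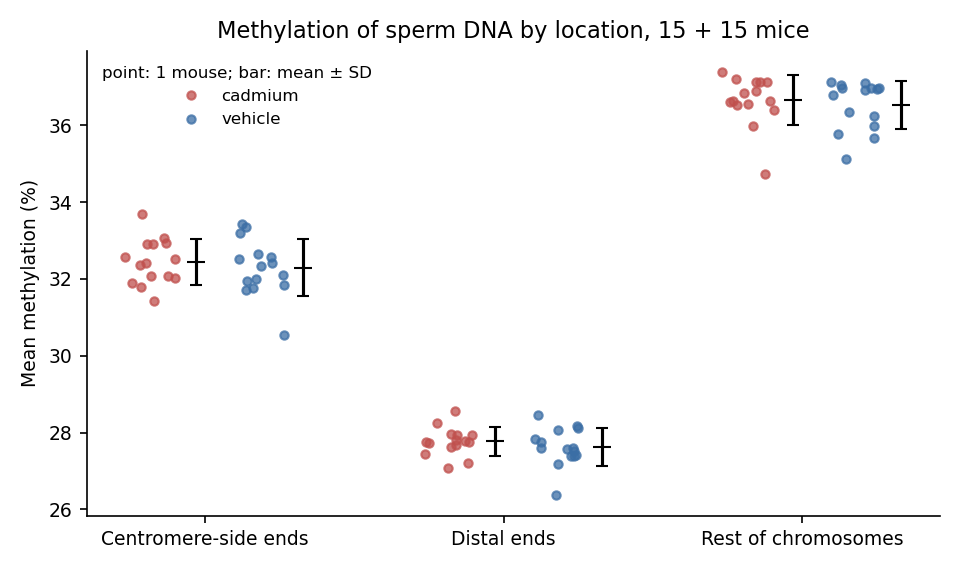
Mean methylation (%, vertical axis, which does not start at 0) of each mouse in the centromere-side ends, the distal ends and the rest of the chromosomes, with cadmium mice in red, vehicle mice in blue and bars for the group mean ± SD (n = 15). The 3 locations separate fully, between 26.4% and 37.4%, while the 2 groups overlap in each.

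The order depended on how chromosomes were weighted. With each of the 19 chromosomes counted equally, the levels were 36.8% in centromere-side ends, 38.7% in distal ends and 36.7% in the rest. Distal minus rest was then 1.999 points and centromere-side minus distal -1.93 points (adjusted p = 1.5e-05 each). Centromere-side ends and the rest then differed by 0.0647 points (adjusted p = 0.763, two-sided permutation test within mice). The 3 distal ends with most CpGs held 41.5% of the distal CpGs, and the 3 largest centromere-side ends 35.2%. Interior windows of 1 Mb, each weighted equally, averaged 46.1%, above both classes of end weighted the same way.

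Chromosome by chromosome, the ends showed no shared direction. The centromere-side end was above the distal end on 10 of 19 chromosomes, above the rest on 6, and the distal end was above the rest on 9. Both ends lay below the rest on 7 chromosomes and both above it on 3. The rests themselves lay close together, between 33.0% (chromosome 11) and 38.3% (chromosome 6). Outside that range stood 32 of the 38 ends, 19 below and 13 above it. Leaving out any single chromosome kept the sign of the 3 differences over CpGs. The centromere-side minus distal difference moved most, from 3.06 points without chromosome 15 to 6.23 without chromosome 5.

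**Figure D2:**
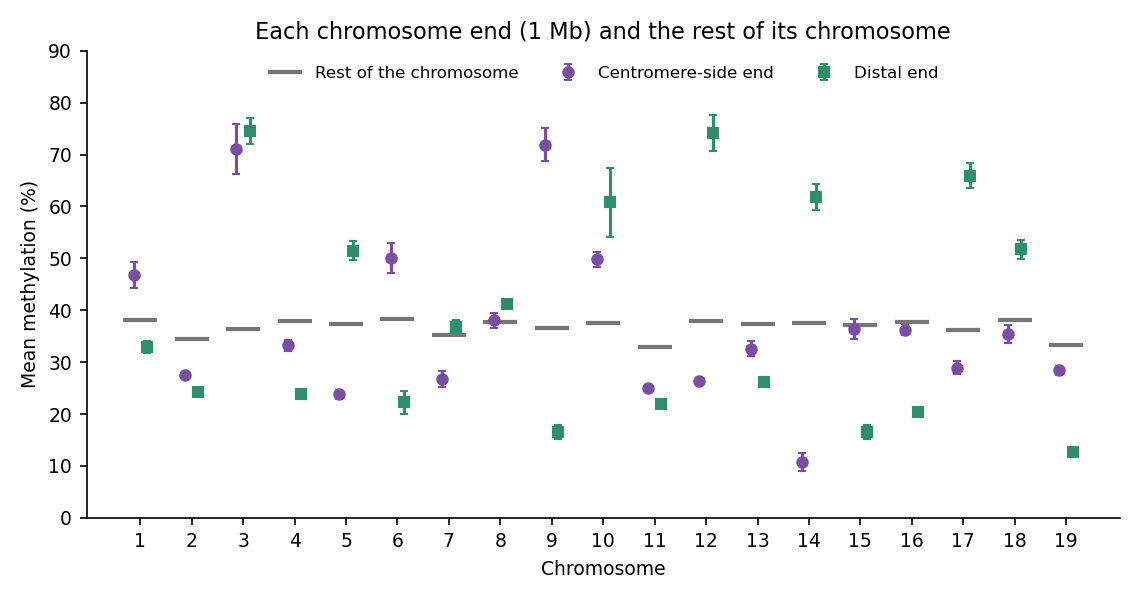
Mean methylation (%, vertical axis) of the centromere-side end (purple circles) and distal end (green squares) of each chromosome (horizontal axis), with the SD over mice within groups as bars (n = 30), and of the rest of the chromosome (grey dashes). The ends scatter from 10.7% to 74.5% around rests that lie between 33.0% and 38.3%.

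Among the least methylated ends was the centromere-side end of chromosome 14, at 10.7% over only 26 CpGs, with cadmium mice from 7.70% through a median of 11.3% to 13.1% and vehicle mice from 6.35% through 11.1% to 13.8%. Whether reads of near-identical copies were counted at this end was not tested, and its level may be a mean over them. The distal end of chromosome 19 stood at 12.7% over 550 CpGs, with mice between 10.8% and 15.7%. The distal ends of chromosomes 9 and 15 followed, both at 16.5%, over 456 and 1183 CpGs. In the chromosome 15 end, which holds the body-plan genes Hoxc10 and Hoxc11, 75.9% of CpGs were under 20% methylated. The other named low ends on the centromere side were those of chromosome 5, at 23.8%, and chromosome 11, at 25.1%, the end with most CpGs on that side (1235).

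The most methylated ends had few CpGs. On chromosome 3 the distal end stood at 74.5% over 113 CpGs and the centromere-side end at 71.1% over 155. The distal end of chromosome 12 stood at 74.1% over 86 CpGs, the centromere-side end of chromosome 9 at 71.9% over 196, the distal end of chromosome 17 at 65.9% over 154, and the centromere-side end of chromosome 6 at 50.1% over 165. Over the 38 ends, the level and the log10 number of CpGs had r = -0.569, and over the 2365 interior windows r = -0.731. Within the classes r was -0.833 for distal ends but -0.209 for centromere-side ends, where the end with fewest CpGs, that of chromosome 14, was the least methylated. The points share these libraries and the choice of fragments by the assay, so this is a description without a test. Among interior windows, 4.78% had a level under the 5th percentile of all windows. So did 6 of 19 distal ends and 1 of 19 centromere-side ends (the distal ends of chromosomes 6, 9, 11, 15, 16 and 19 and the centromere-side end of chromosome 14). No end was above the 95th percentile.

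Local CpG density differed between the locations and moved with the level. CpGs with 10 or more other kept CpGs within 100 bp made up 39.2% of centromere-side, 45.0% of distal and 37.6% of other CpGs. Genes per Mb numbered 16.4, 18.7 and 13.6 in the same order, and the share of CpGs within 1000 bp of a gene start was 50.6%, 55.5% and 46.0%. Where no start site was known, both ends of the gene were counted as starts here. Among the dense CpGs the order turned. The level was 2.57% ± 0.364 (SD, n = 30) in centromere-side ends, 2.11% ± 0.182 in distal ends and 1.56% ± 0.240 in the rest. The ends were thus 1.01 and 0.544 points above the rest (adjusted p = 1e-05 each, two-sided permutation test within mice). The distal ends held 4520 dense CpGs, and 58 closely spaced CpGs of 1 promoter on chromosome 13 averaged 71.9%. Dense levels without that promoter, or without the few methylated clusters of the centromere-side ends, were not computed. The turned order may therefore rest on a few loci.

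CpGs with 0 to 2 others nearby kept the order found over all CpGs, at 72.5% ± 1.06, 68.6% ± 1.39 and 73.9% ± 1.87 (SD, n = 30). With 3 to 9 others nearby, both classes of end stood at 32.2% (SD 1.42 and 1.41) against 39.2% ± 0.736 in the rest. Their difference from each other was 0.0251 points there (adjusted p = 0.793, same test), and their differences from the rest were -7.07 and -7.10 points (adjusted p = 1.5e-05). The part that density has in the differences over all CpGs was not tested further. As a share of all reads, which weights CpGs by coverage, centromere-side ends were 0.328 points above the rest (adjusted p = 0.225).

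**Figure D3:**
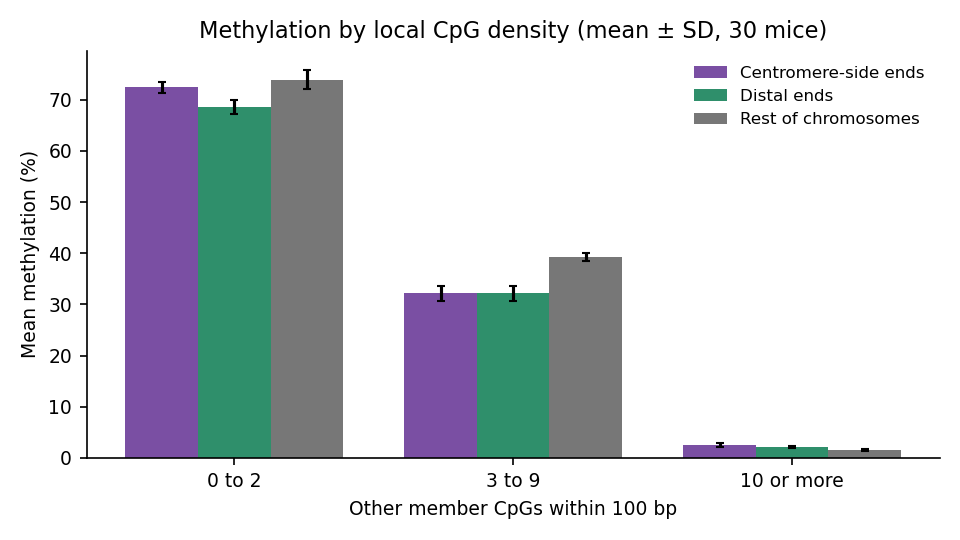
Mean methylation (%, vertical axis) by the number of other kept CpGs within 100 bp (horizontal axis), as bars with the SD over 30 mice, for centromere-side ends (purple), distal ends (green) and the rest (grey). The rest is highest at 0 to 2 and 3 to 9 neighbours (73.9% and 39.2%) and lowest at 10 or more (1.56%).

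By context, CpGs within 1000 bp of a gene start averaged 3.66% ± 0.217 (SD, n = 30) in centromere-side ends, 4.93% ± 0.256 in distal ends and 4.38% ± 0.205 in the rest. As above, both ends of a gene without a known start site counted as starts. CpGs inside genes averaged 57.6% ± 0.943, 52.4% ± 0.856 and 62.5% ± 1.58. Between genes the levels were 66.3% ± 1.98, 61.1% ± 1.56 and 66.6% ± 1.03. The distal ends were thus lowest inside and between genes but highest near gene starts. The 58 CpGs on chromosome 13, at 71.9%, span a shared promoter and raise the mean of the 5579 distal CpGs near gene starts. The level without them was not computed, so that ranking may rest on this 1 promoter.

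Along the chromosomes the level moved up and down rather than changing at 1 Mb. In vehicle mice, the outermost 0.5 Mb stood at 35.5% on the centromere side and 31.9% on the distal side, and the next 0.5 Mb at 29.6% and 24.5%. From 1.5 to 2 Mb the levels were 27.5% and 31.0%. The bins from 2.5 to 10 Mb spanned 31.9% to 44.3% on the centromere side and 30.3% to 47.6% on the distal side. The lowest bin of this profile was the distal 0.5 to 1 Mb bin, where single mice ranged from 23.8% to 25.3%.

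**Figure D4:**
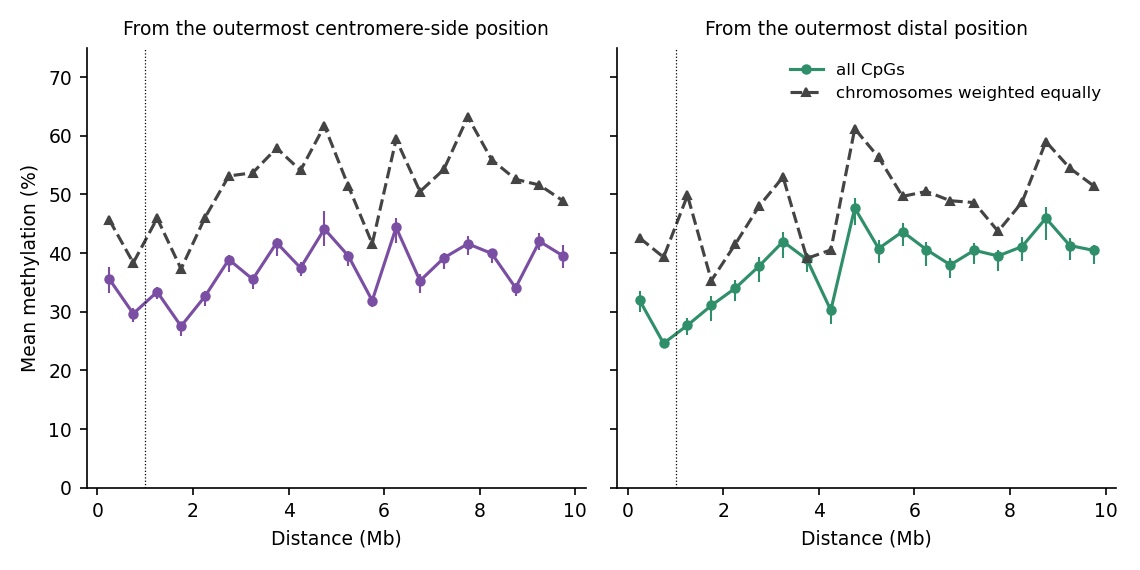
Mean methylation (%, vertical axis) in bins of 0.5 Mb by distance (Mb, horizontal axis) from the outermost covered position, over all CpGs (solid, vertical lines from the lowest to the highest mouse) and with chromosomes weighted equally (dashed). The dotted line is the 1 Mb limit of the ends; the distal bin of 0.5 to 1 Mb, between 23.8% and 25.3%, is the lowest over all CpGs.

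Gene ends, the windows of 1000 bp either side of a start site (or of a gene's end with more CpGs where no start site was known) with 3 or more tested CpGs, numbered 167 in centromere-side and 194 in distal ends. They were mostly unmethylated: 147 and 166 were under 20%, or 88.0% and 85.6%, against 82.9% of 17613 elsewhere on the autosomes. The median gene end stood at 0.766%, 0.709% and 0.785%. Over their start-site sequences in the RefSeq table, 47.4% of 333 centromere-side, 53.8% of 340 distal and 53.5% of all 31396 autosomal promoters of 300 bases held CCGG, a motif that reads the same on both strands. Of the 673 promoters in the ends, 224 had 3 or more kept CpGs, and 219 of these were under 20%.

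Genes of chromatin and DNA methylation were nearly unmethylated at their gene ends. All 6 measured of 7 listed were under 20%, with a median of 0.524%. Dnmt3a stood at 0.545% over 179 CpGs, Kmt5b (histone H4 lysine methyltransferase) at 0.502%, Suv39h2 (histone H3 lysine methyltransferase of heterochromatin) at 0.296%, Asxl2 (a Polycomb-associated protein) at 0.789%, and the zinc finger genes Patz1 and Prdm15 at 1.75% and 0.502%. Their highest mouse was at 4.49%, in Patz1.

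Germ cell genes behaved alike at the 4 of 8 that were measured. Mos, the kinase that holds eggs in meiosis, stood at 1.26%, Meig1 (needed for sperm formation) at 0.561%, Sfi1 (a centrosome protein) at 0.456% and Crem (a transcription factor of spermatids) at 0.450%. The 11 measured of 12 growth and metabolism genes had a median of 0.731%. They include the insulin receptor gene Insr at 0.581%, the cyclin gene Ccnd1 at 0.376%, and the growth factor genes Fgf3, Fgf4 and Fgf15 at 0.615%, 1.03% and 0.731%. The growth hormone receptor gene Ghr was the most methylated of them, at 5.96%, with mice from 0% to 23.7%.

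Of 15 developmental genes, 10 were measured, all under 20%, with a median of 0.919%. Hoxc10 and Hoxc11, of the HoxC cluster, stood at 5.60% and 2.65%, Sox18 (a factor of blood and lymph vessels) at 1.53%, and Agrn (which organises the nerve-muscle junction) at 0.524%. None of the 7 detoxification and stress genes, 4 of which lie in an end, had 3 tested CpGs.

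The outermost measured gene was under 20% on 31 of 37 ends that had one. Fam171a1 on chromosome 2, Eif4enif1 (a partner of the cap-binding protein eIF4E) on chromosome 11 and Scaf8 on chromosome 17 stood at 0.557%, 0.458% and 0.608%. The 6 others were Samd11 (47.3%, mice from 0% to 80.4%), LOC108167320 (43.6%), Gm29826 (28.2%), AF067063 (89.9%), Ccdc152 (24.1%) and 6720473M11Rik (42.0%). Of these, Samd11, AF067063 and LOC108167320 are on distal ends.

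Gene ends at 20% or more numbered 20 in centromere-side and 28 in distal ends, and 10 of the latter were among the 43 distal gene ends of chromosome 4, the end with most of them. Several encode proteins known from particular tissues, and these were picked after their values were seen. Gabrd, a GABA receptor subunit of neurons, stood at 96.4%, Tas1r3, a taste receptor subunit, at 94.1%, and Tnfrsf18, a receptor of T cells, at 94.7%, all in the distal end of chromosome 4. In the distal end of chromosome 11, Tex19.1 and Tex19.2, germ cell genes whose promoters are methylated in body cells, stood at 38.6% and 29.6%. Single mice ran from 4.21% through a median of 36.9% to 89.3% at Tex19.1 and from 8.75% through 26.9% to 72.2% at Tex19.2.

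Stretches of CpGs with gaps of at most 100 bp were called clusters, and those of 15 or more CpGs were taken as dense. Of 106 in centromere-side ends and 137 in distal ends, 103 and 131 were under 5%, and 2 and 4 were at 20% or more. The shares at 20% or more, 1.89% and 2.92%, compare with 2.94% of 12882 clusters elsewhere. The 6 clusters are named in full. The 58 CpGs across the shared promoter of Tmem267 and 3110070M22Rik on chromosome 13 (119488168 to 119488562) stood at 71.9%, with mice from 62.1% through 72.1% to 81.9%. A second cluster of 15 CpGs within Tmem267 (119488923 to 119489108) stood at 68.8%. Reads per CpG were 192 and 172 at these 2 clusters, above the 32.3 to 69.9 of the other 4. Whether other copies of this sequence add reads was not tested, so both levels may be means over several copies.

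On chromosome 8, 16 CpGs within Gm32856 (129268209 to 129268482) were methylated in every mouse, at 97.4% with a range of 94.0% to 99.92%. The other 3 varied widely. A cluster of 17 CpGs within Mboat7, which encodes an enzyme that remodels membrane phosphatidylinositol (chromosome 7, 3685716 to 3685868), stood at 65.7% with mice from 37.8% to 86.1%. At Tex45 (chromosome 8, 3482535 to 3482800, 19 CpGs) the level was 29.9%, from 1.34% to 67.5%. At Smug1, the gene of a DNA repair glycosylase (chromosome 15, 103155797 to 103156174, 17 CpGs), it was 28.8%, from 0% to 65.8%.

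Spread between libraries at the ends was close to that of other windows with as many CpGs. The median SD over mice within groups was 1.39 points for centromere-side ends, 1.35 for distal ends and 1.504 for 2365 interior windows. For windows with 500 or more CpGs the medians were 0.907, 0.880 and 1.08, and for windows with under 200 CpGs they were 2.92, 2.51 and 2.92. The distal end of chromosome 10 had the largest SD, 6.65 points over 112 CpGs. Cadmium mice there ran from 52.2% through a median of 61.9% to 72.5% and vehicle mice from 49.2% through 57.5% to 73.5%.

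Next came the centromere-side end of chromosome 3, with an SD of 4.83 points and mice between 62.2% and 80.3%, then the distal ends of chromosomes 12 (3.52) and 14 (2.55) and the centromere-side ends of chromosomes 9 (3.20) and 6 (2.92). The smallest SDs were those of the distal end of chromosome 11, at 0.427 points, and the centromere-side end of the same chromosome, at 0.547. Single CpGs of 20 to 80% methylation had a median SD of 28.7 points in both classes of end and 29.6 in the rest. Gene ends with the largest SD were LOC115489960 (38.4 points, 3 CpGs), Lrrd1 (29.8), Gm39567 (28.0), Tmc4, of the transmembrane channel-like family (26.3), and Plekhg1 (26.1).

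The level of the ends moved with the maternal DMR level across mice, in the direction opposite to the rest of the chromosomes. The 14 imprinted gene ends behind that level lie outside the chromosome ends. It was 15.6% ± 5.95 (SD, n = 15) in cadmium and 12.8% ± 8.22 in vehicle mice. For centromere-side ends Pearson's r was 0.696 (adjusted p = 3.82e-05) and Spearman's rho 0.719 (adjusted p = 1.75e-05) over 30 mice, with r = 0.512 in cadmium and 0.797 in vehicle mice. For distal ends r was 0.528 (adjusted p = 0.00342) and rho 0.522 (adjusted p = 0.00461), with r = 0.0982 in cadmium and 0.737 in vehicle mice, so the relation did not hold within the cadmium group. For the rest r was -0.369 (adjusted p = 0.0623) and rho -0.575 (adjusted p = 0.00179). All p-values are from two-sided permutation tests, adjusted over 21 relations, some of which were chosen after the data were seen.

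Without the 2 mice farthest from the median DMR level, vehicle mice 4 and 13, r was 0.613 for centromere-side ends, 0.401 for distal ends and -0.297 for the rest. Without cadmium mouse 9 and vehicle mouse 15, it was 0.763, 0.555 and -0.641. The gap between an end and the rest followed the DMR level more closely. There r was 0.815 (rho 0.798) for centromere-side minus rest and 0.738 (rho 0.713) for distal minus rest. Centromere-side and distal levels moved together, with r = 0.879 and rho = 0.826. The relations of the gaps and of the end classes with each other were chosen after the data were seen and are a description with no test.

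The mitochondrial share of coverage, 0.0127% to 0.119% of a library, gave r = 0.644 (rho 0.707, adjusted p = 0.000175 and 1.75e-05) with centromere-side ends and -0.567 (rho -0.758, adjusted p = 0.00149 and 1.75e-05) with the rest. With distal ends r was 0.357 (adjusted p = 0.0681) and rho 0.391 (adjusted p = 0.0441). The part of body-cell DNA in these levels was not tested.

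**Figure D5:**
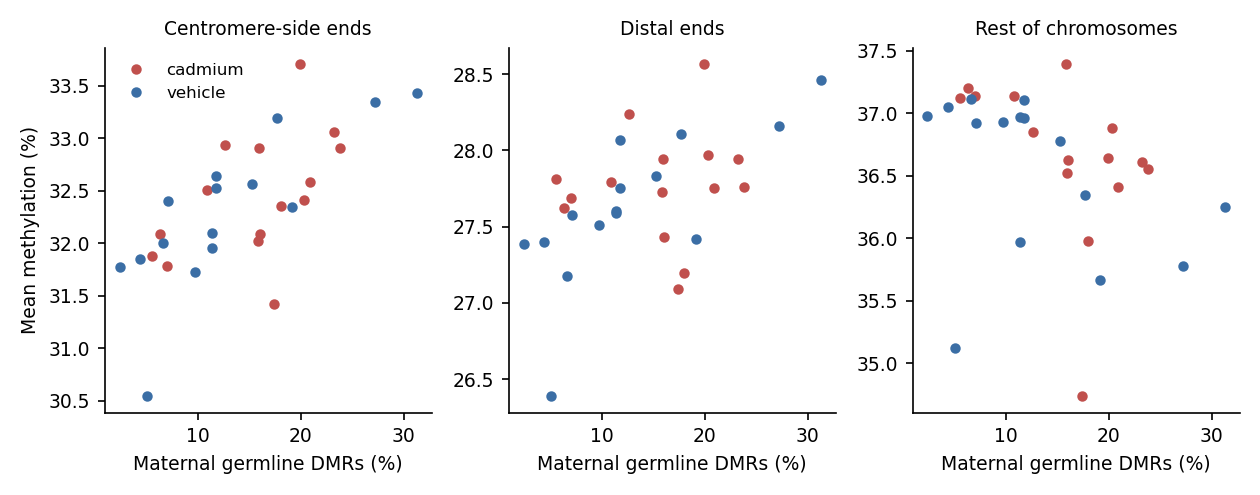
Mean methylation (%, vertical axes with separate ranges that do not start at 0) of centromere-side ends, distal ends and the rest against the level at maternal germline DMRs (%, horizontal axis), with cadmium mice in red and vehicle mice in blue. The point cloud climbs for centromere-side ends (r = 0.696) and slopes down for the rest (r = -0.369).

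Single ends and features differed in this relation. Over the 38 ends r ran from -0.711 (distal end of chromosome 4) to 0.783 (centromere-side end of chromosome 7), given as a description. It was above 0.5 in 9 centromere-side and 7 distal ends and in 27.6% of interior windows, and under -0.5 in 0 centromere-side and 4 distal ends and in 23.2% of interior windows. The 6 methylated dense clusters were chosen after the data were seen, so their r and rho are a description with no test. The variable ones at Tex45 (r = 0.780, rho = 0.724), Smug1 (0.764 and 0.806) and Mboat7 (0.717 and 0.758) moved with the DMR level. Those at 3110070M22Rik (r = 0.0697, rho = 0.0981), Tmem267 (0.214 and 0.215) and Gm32856 (-0.276 and -0.257) were more weakly related to it.

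The gene ends of Tex19.2 (r = 0.812, rho = 0.776), LOC115490388 (0.804 and 0.784), Ccdc152 (0.752 and 0.770) and Tex19.1 (0.712 and 0.773) were chosen after their values were seen, so their r and rho are a description with no test. Without vehicle mice 4 and 13, r was 0.657 to 0.734 over these 4 gene ends and the 3 variable clusters. The promoters of LOC115490388 and Ccdc152 are the intermediate ones printed above.

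No difference between cadmium and vehicle mice passed the test at the ends. The centromere-side level was 32.4% ± 0.592 (SD, n = 15) in cadmium and 32.3% ± 0.736 in vehicle mice, a difference of 0.151 points with a 95% interval of -0.349 to 0.652 (permutation p = 0.544). At distal ends it was 27.8% ± 0.368 and 27.6% ± 0.492, a difference of 0.141 points with an interval of -0.185 to 0.467 (permutation p = 0.389). In the rest it was 36.7% ± 0.647 and 36.5% ± 0.634, a difference of 0.125 points with an interval of -0.354 to 0.604 (permutation p = 0.604). The group difference at centromere-side ends minus that in the rest was 0.0264 points, with an interval of -0.621 to 0.674, and for distal ends it was 0.0157, with an interval of -0.462 to 0.493. The adjusted p was 0.947 for all 6 comparisons, which include centromere-side minus distal (0.0106 points, -0.254 to 0.276). Computed from summed reads, the group differences were over 10 times larger, at 1.61 points in centromere-side ends, 1.62 in distal ends (permutation p = 0.0764) and 1.77 in the rest, with adjusted p of 0.458 to 0.570, and the 95% intervals above do not cover them. Without vehicle mice 4 and 13, the libraries above 25% at maternal DMRs, the differences were 0.320, 0.246 and 0.0453 points, and those of each end minus the rest 0.275 and 0.201 (adjusted p of 0.519 or more by permutation). Without cadmium mouse 9 and vehicle mouse 15 they were 0.0992, 0.101 and 0.162 points (adjusted p = 0.991 by permutation). The median reads of a member CpG were 37 in cadmium mice and 42 to 43 in vehicle mice at the ends.

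Of the 38 ends none was called between the groups by limma, where the background over all 2403 windows of 1 Mb was 0% at an adjusted p under 0.05 and 1.62% (39 windows) at an unadjusted p under 0.05. No end was under that unadjusted threshold either, and the smallest adjusted p was 0.999. By the logistic model on summed reads 0 ends were called, 1 was under the unadjusted threshold, and the smallest adjusted p was 0.890. In each class 14 of 19 ends were higher and 5 lower in cadmium mice, beside 1553 higher and 812 lower interior windows. The smallest unadjusted p of limma at an end was 0.166, at the distal end of chromosome 17. There cadmium mice ran from 62.7% through a median of 66.3% to 70.6% and vehicle mice from 60.8% through 65.2% to 69.3%, a difference of 1.20 points.

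Others named by the same rule were higher in cadmium mice by 0.638 points (centromere-side end of chromosome 8), 0.253 (centromere-side, chromosome 11), 0.236 (centromere-side, chromosome 19), 0.460 (distal, chromosome 1) and 0.337 (distal, chromosome 13). Differences of -0.368 points were found at the centromere-side end of chromosome 1, -0.171 at that of chromosome 17 and -0.0966 at that of chromosome 5. At distal ends they were -0.316 points on chromosome 19, -0.752 on chromosome 12 and -0.0754 on chromosome 16. None of these 11 had an unadjusted p of limma under 0.217.

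At single CpGs 0 of 17417 tested in the ends were called by the logistic model, beside a background of 0.000533% (6 of 1125285). At an unadjusted p under 0.05 there were 1715, or 9.85%, where the background was 10.1%. By limma the counts were 0 called and 280 at an unadjusted p under 0.05, with a background of 0% and 1.61%. CpG clusters gave 0 of 1509 called (background 0.000974%) and 97 at an unadjusted p under 0.05, or 6.43% (background 6.02%), and by limma 0 and 56 (background 0% and 3%). Gene ends gave 0 of 361 called (background 0%) and 22 at an unadjusted p under 0.05, or 6.09% (background 5.57%), and by limma 0 and 11 (background 0% and 4.19%).

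The CpGs with the smallest p were at the edge of complete methylation or its absence. On chromosome 3 at 159250004 to 159250005, within Gm20752, all 14 measured cadmium mice were at 100%, and 13 vehicle mice averaged 69.0% ± 30.7, from 0% through a median of 64.9% to 100% (p = 3.49e-06, adjusted p = 0.101 by the logistic model). Within Ccdc7b on chromosome 8 (129124289 to 129124290), 9 of 14 cadmium mice and 14 of 15 vehicle mice were at 0%, and the means were 8.34% and 0.0447% (adjusted p = 0.109). Within Uckl1os on chromosome 2 (181582183 to 181582184) the means were 8.82% and 0.0813% (adjusted p = 0.113), and 7 of 14 cadmium mice were at 0%. The groups overlapped at all 3 sites.

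Of CpGs lower in cadmium mice, that on chromosome 17 (94341665 to 94341666), 164849 bp from Gm32512, averaged 82.3% ± 16.6 over 14 cadmium mice, and each of 12 measured vehicle mice had 100% (adjusted p = 0.115, logistic model). A CpG within Gm32856 (chromosome 8, 129268456 to 129268457) had means of 96.4% and 100% (adjusted p = 0.130), and 1 within Tpcn2, the gene of a lysosomal ion channel (chromosome 7, 145272747 to 145272748), 95.6% and 100% (adjusted p = 0.137). By limma the adjusted p of all 6 CpGs was 0.920.

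Among clusters, 3 CpGs within Ano1, which encodes a calcium-activated chloride channel (chromosome 7, 144712045 to 144712081), averaged 97.5% in 12 cadmium mice, from 89.5% to 100%, and were at 100% in all 13 vehicle mice (adjusted p = 0.139, logistic model). At 7 CpGs within Gng11, a G protein gamma subunit gene (chromosome 6, 4004161 to 4004208), 4 of 11 cadmium mice were above 0%, at most 12.5%, and 0 of 14 vehicle mice (adjusted p = 0.321). Clusters 4101 bp from Gm52714 on chromosome 4 (1.92% and 0.152%), within the forkhead gene Foxk2 on chromosome 11 (0.463% and 0%), within the GTPase gene Arfrp1 on chromosome 2 (0% and 0.172%) and around the CpG near Gm32512 (82.5% and 96.8%) had adjusted p of 0.329 to 0.498. Cadmium means are given first. By limma the adjusted p of all 6 clusters was 1.

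Most gene ends with the smallest p differed by small amounts near 0%, Gm11946 being the exception. Tgs1, which encodes an enzyme that methylates the cap of small RNAs, and Tmem68 face each other and share 48 CpGs on chromosome 4. Cadmium mice ran from 0.123% through a median of 2.11% to 3.88% there and vehicle mice from 0% through 1.00% to 1.57%. Their means were 1.89% ± 1.27 and 0.941% ± 0.470 (SD, n = 15 each, p = 0.00277, adjusted p = 0.543 by the logistic model). Copz1, a vesicle coat gene, had a mean of 0.188% in cadmium mice, with every one of 14 measured vehicle mice at 0%, A930035F09Rik at 0.920% and 0.441%, and C1qtnf12, the gene of a secreted protein, at 0.150% and 0%.

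Lower in cadmium mice were Gm1976 (0.128% against 1.69%), Gm46840 (0.160% against 1.14%), Gm11946 (63.2% ± 2.76 against 65.1% ± 3.22) and the window that Mboat7 shares with Tsen34, a tRNA splicing gene (0.135% against 0.423%). The adjusted p of these gene ends was 0.591 to 0.820. Of the 31 listed genes measured, 0 were called and 1, Foxk2, was at an unadjusted p under 0.05 (p = 0.0405, adjusted p = 0.853, logistic model), beside 0% and 5.57% of all gene ends.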

How the data were processed

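RRBS libraries of 30 sperm samples, 1 per mouse by the labels, were used as deposited by the authors: a coverage count and the fraction methylated of each cytosine on its strand, in files without a header. Per the submitters' processing notes, the tools were Bismark 0.22.3, methylKit 1.12.0, Trim Galore 0.5.0 and bcl2fastq and the builds GRCm38 and mm10, with no role stated for any of them. Methylated reads were the rounded product of fraction and deposited count (at most 1 product per library was farther than 0.1 from a whole number), and strands were summed.

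A library's level over a set of CpGs was the mean of the CpG means plus its mean deviation from them, so that missing CpGs do not shift it. Locations were compared within mice and groups between mice by permutation (100000 resamples). Windows were tested with limma 3.58.1 on percent methylation. CpGs (10 or more reads in 10 or more mice of each group, values above the 99.9th percentile of a library left out), clusters and gene ends were tested with a logistic model on reads with dispersion, with Benjamini-Hochberg adjustment over each whole table. On simulated reads without group differences the logistic model passed more CpGs than its nominal rate, so limma is given beside it. Reads are not separate molecules, so counts overstate depth. Start sites came from RefSeq (GRCm38.p6) for 78.0% of 34337 genes. Among the 210 pairs of libraries within groups, the mean chi-square per intermediate CpG of the ends was at least 10.9, so none looked like the same library deposited again.

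The members, lists and tests were chosen with earlier results of these data known. Named ends were the 3 highest, 3 lowest, 3 most variable and, by smallest p, the 3 raised and 3 lowered in each class. Named genes were the outermost measured gene of each end, by smallest p the 5 raised and 5 lowered, the 5 most variable and the list members; CpGs and clusters were taken likewise, 3 in each direction. Alternatives were other coverage minimums, end sizes, weightings, density classes, limma, a replicate block, a coverage covariate and libraries or chromosomes left out. The settings that leave out libraries or chromosomes, the dense clusters and the relations beyond the class levels with the maternal DMR level and mitochondrial share were chosen after seeing the data. Some genes that the rule takes are given only as counts.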

Additional observations from a re-analysis of the deposited data

How the results depend on the processing

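Under other settings, 173 recomputed values that answer a comparison and 172 of single named features stayed the same. For a difference this means its direction and side of the threshold. For a class level it means a shift smaller than its SD over mice, and for a count of calls an equal count. The class levels moved with the CpGs taken: with 5 reads they were 33.2%, 28.4% and 37.3% (centromere-side, distal, rest), with 20 reads 29.8%, 26.2% and 34.7%, and over CpGs measured in all 30 libraries 23.5%, 21.9% and 28.1%. As a share of reads the ends stood at 37.4% and 29.0%, and with chromosomes weighted equally at 36.8% and 38.7%. With ends of 0.5 Mb they stood at 35.6% and 31.9%, and with ends of 2 Mb at 31.1% and 28.8%. Centromere-side minus rest was -0.950 points with 0.5 Mb, -4.22 with 1 Mb and -5.665 with 2 Mb. Distal minus rest was -4.57, -8.89 and -7.94 points in the same order. Location differences turned as a share of reads (centromere-side minus rest 0.328 points), with equal weight (-1.93 for centromere-side minus distal, 0.0647 for centromere-side minus rest and 1.999 for distal minus rest) and among CpGs with 10 or more neighbours (1.01 and 0.544 for the ends minus the rest). With 3 to 9 neighbours centromere-side minus distal was 0.0251 and did not pass the test. Beyond what the construction of each setting shows, the cause was not tested.

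The group differences of these differences passed the test under none of these settings and changed sign under several. The largest were 0.275 (centromere-side minus rest) and 0.201 (distal minus rest), without the 2 vehicle libraries above 25% at maternal DMRs. Centromere-side minus distal was -0.0360 (20 reads), -0.0264 (all 30 libraries), -0.00749 (share of reads), -0.0220 (2 Mb), -0.0578 (equal weight) and -0.00150 (without cadmium mouse 9 and vehicle mouse 15). Centromere-side minus rest was -0.164 (share of reads), -0.00564 (2 Mb) and -0.0624 (without those 2 mice). Distal minus rest was -0.0441 (5 reads), -0.156 (share of reads), -0.0405 (0.5 Mb) and -0.0609 (without those 2 mice). Of single ends, the difference turned at distal chromosome 12 (0.0647 with 5 reads, 0.285 with 20), centromere-side chromosomes 17 (0.0112 with 20 reads, 1.77 by the logistic model on summed reads) and 5 (0.127 and 0.9751), and distal chromosomes 16 (0.168 and 0.621) and 19 (0.450 by the logistic model). At Gm1976 it was 0.296 with 5 reads.

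The labels number the mice 1 to 15 in both groups. Same-numbered mice correlated over 0.1 in 8 of 15 pairs, and the own number gave the best correlation for 2 of the 15 cadmium mice, so the numbers were not taken as pairs. With a replicate block the group differences stayed at 0.151, 0.141 and 0.125 points (adjusted p = 0.938, permutation within numbers), and 0 of 2403 windows were called, with 65 at an unadjusted p under 0.05 against 39 without the block.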
